A study of Gallus gallus with 14 samples.

Results

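The genes described here encode proteins of the cytosolic ribosome, measured in chick retina. They were taken by symbol (RPL or RPS with a number and at most one of the suffixes A, X, Y or L, together with RPLP0, RPLP1, RPLP2 and RPSA, without the RPS6 kinases), which gave 74 of the 18631 genes in the deposited table, 44 of the large 60S subunit and 30 of the small 40S subunit. Of these, 73 passed the filter on low values and were tested. They are not the whole family, as RPL10, RPL13A, RPL18, RPL28 and RPL41 were not listed under those symbols. Levels are in CPM (reads of a gene per M reads of the library). All 14 libraries came from total RNA of retinas of wild type White Leghorn chickens whose age label reads postnatal day 3. The lens group (7 libraries, lens-induced myopia retina) came from birds fitted at 3 days of age with -10 D lenses and sampled after 3 days of wear, and the control group (7 libraries) carries the label control retina. Whether the samples came from separate animals is not stated in words, so p-values here measure the spread between samples. Libraries are named by group and by a number given in the order of deposit.

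Ribosomes are built from ribosomal RNA and a fixed set of proteins, each present in a single copy in most cases, so the genes of this family are used together in every growing or secreting cell. The 40S subunit reads the mRNA and the 60S subunit joins the amino acids. In vertebrates the mRNAs of these proteins begin with a run of pyrimidines and their translation follows the growth signals that pass through the kinase mTOR. In birds, females carry a Z and a W chromosome and males a pair of Z chromosomes, and most Z-linked genes lack full compensation for this difference in dose.

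Neural retina markers were present (13 of 15 markers were listed and all 13 were tested). Of 9 red blood cell markers only 1, SLC4A1, was listed, and it reached at most 0.0549 CPM. The others, globins among them, were not listed under the symbols sought, so RNA of red blood cells could not be assessed from them. Library totals, worked out from the size of 1 read in the values, were 30.8 to 41.4 M reads, of which the listed genes held 9.68 to 13.8 M. Where a gene had no read, its level could still have been as high as 0.0724 to 0.0973 CPM (3 counts, counting error only). W-linked RNA was present in 5 libraries, in which the W-linked gene HINTW stood at 116.8 to 145.0 CPM, and near 0 (0.0243 to 0.549 CPM) in the remaining 9. Those with it were control 2, 3, 4 and 7 and lens 4. The labels do not give sex, so these libraries are called by their W-linked RNA. In whole retina, fewer cells of a type and less RNA per cell cannot be told apart.

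The 74 genes together made up about 1% of the signal of the listed genes. Their summed level was 2827, 3122 and 3225 CPM (lowest, median and highest) in the control libraries and 3007, 3178 and 3374 CPM in the lens libraries, so the groups overlapped between 3007 and 3225 CPM. As a share of the column sums these genes held 0.884%, 0.959% and 1.02% in controls and 0.983%, 1.03% and 1.11% in lens libraries. These ranges overlapped only between 0.983% and 1.02%, and 5 of 7 controls lay below every lens library; this share was not tested. Between 0.0902 and 0.132 M reads per library fell on them. Both the sum and the share include 4 members on chromosome Z, and W-linked RNA differs between the groups. Those 4 summed to 107.7, 126.7 and 212.7 CPM (lowest, median and highest) in controls and 124.5, 212.3 and 217.0 CPM in lens libraries. The share without them was not worked out. Transcript lengths are not in the files used, so levels are compared between libraries within a gene and not between genes.

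The SD of log2(CPM + 1) over the 14 libraries had a median of 0.16 over the 69 members not on chromosome Z, with a lowest value of 0.08 and a highest of 0.62. For comparison, the median was 0.17 over the 57 members with mean levels of 10.6 to 95.0 CPM (the middle of the family's range). It was 0.14 over 4586 other genes in the same range of levels. Both of these sets take in genes on Z, with RPL17 among the members. In 67 of the 69 members the SD was larger than that expected from counting reads, with a median ratio of 4.33. The exceptions were RPL3L and RPS27L, the members with the lowest levels among those tested. The counting SD was worked out without the 1 added to CPM, which makes it too large at low levels. RPL3L and RPS27L therefore cannot be judged by this comparison.

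The steadiest members, after the mean of the family was taken off each library, were RPL32, RPL4, RPL27, RPS4X and RPS25. RPL4, whose loop lines the tunnel through which the new protein leaves, stood at 110.2, 132.2 and 150.2 CPM (lowest, median and highest of 14 libraries). RPL27 stood at 66.7, 75.8 and 81.3 CPM, a range of 1.22-fold, and RPL32 at 40.04, 45.5 and 53.8 CPM, a range of 1.34-fold. RPS4X, a 40S protein, stood at 52.7, 61.9 and 70.1 CPM, and RPS25, a 40S protein used by some viral internal entry sites, at 62.2, 74.1 and 83.4 CPM. The ratio of the highest to the lowest library passed 1.5-fold in 40 of the 69 members and 2-fold in 12. Both counts take in RPL3L, at 3 to 19 reads per library, and the same counts were not made over all genes.

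The most variable members were RPS19, RPS23, RPS6, RPS29 and RPLP1, of which RPS6 and RPS23 lie on chromosome Z and are described with the Z-linked genes. RPS19, which in humans is the gene most often mutated in Diamond-Blackfan anaemia, ranged 5.15-fold, from 4.99 CPM in lens 2 to 25.7 CPM in control 7. The sequence that holds RPS19 had too few genes with matched symbols to be assigned to a chromosome. RPS19 is counted with the members not on Z, although its chromosome was not determined. RPS29, a small zinc-binding protein of the 40S subunit, ranged 3.24-fold, from 11.1 CPM in control 5 to 36.1 CPM in control 2. RPLP1, an acidic protein of the stalk that recruits elongation factors, went from 7.93 CPM in lens 4 to 20.6 CPM in control 6.

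The members did not move as a single block. The mean of the 69 members not on Z ran from -0.15 (control 5) to 0.17 (lens 6) on the log2 scale around its average, and this shared rise and fall accounted for 16.9% of their variance between libraries. Of what was left, 51.2% followed a single pattern (the first principal component) in which some members were high where others were low, and 19.7% a second. That weights of both signs occur was fixed in advance, because the library mean of these same members had been taken off. At the high end of that pattern, as chosen after the values were seen, were RPL21, RPL27A, RPL14, RPL11, RPL23 and RPL22, all of the 60S subunit, with weights of 0.74 to 1.11. At its low end were RPS19, RPS29, RPLP1, RPS28, RPS14 and RPS26, with weights of -1.17 to -0.83, of which all but RPLP1 belong to the 40S subunit. Between the ends, 27 of the 69 members had weights within 0.2 of 0.

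The ends can be read in single genes. RPL21 stood at 73.9 CPM in control 2 and 87.2 CPM in lens 6, the libraries lowest on the pattern, and at 147.6 CPM in lens 3 and 138.0 CPM in lens 4, the libraries highest on it. RPS29 ran the other way, with 36.1 and 30.7 CPM in control 2 and lens 6 and 17.8 and 13.6 CPM in lens 3 and lens 4, the former at its median over the libraries. RPL11, which with RPL5 and 5S RNA can bind the p53 ubiquitin ligase MDM2, stood at 20.4 and 23.0 CPM in control 2 and lens 6 and at 38.1 and 28.2 CPM in lens 3 and lens 4. Its partner RPL5 was steadier, at 80.7 to 105.4 CPM over all libraries (SD 0.12 on the log2 scale, against 0.26 for RPL11). RPS14, a protein of the 40S platform, had its highest level in lens 6 (42.6 CPM) and its lowest in lens 4 (13.5 CPM). RPS28, which lies near the path by which mRNA leaves the 40S subunit, stood at 8.40 and 8.79 CPM in control 2 and lens 6 and at 2.90 and 3.53 CPM in lens 3 and lens 4.

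**Figure D1:**
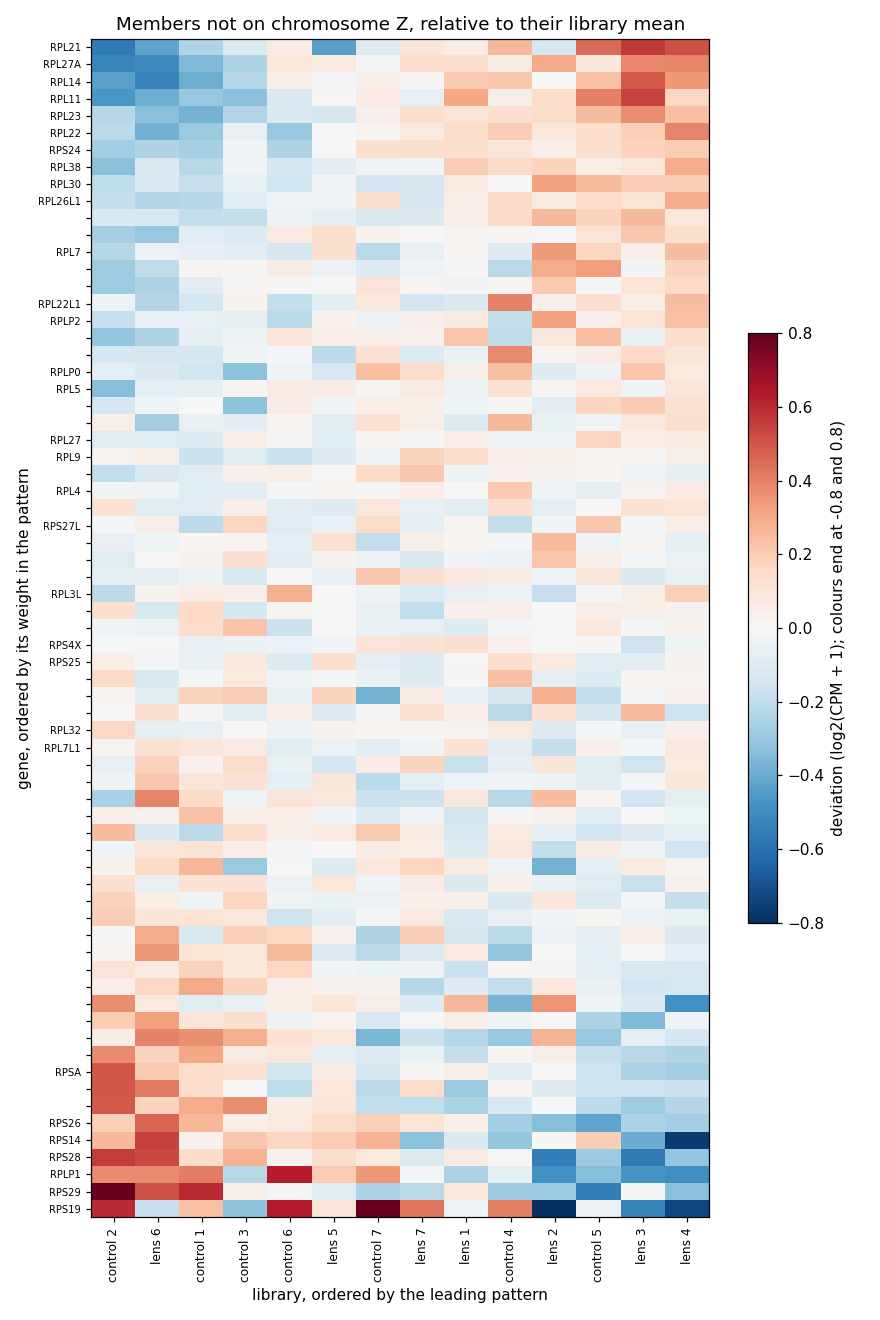
Deviation of each of the 69 members not on Z (rows) from its own average in each of 14 libraries (columns), on the log2(CPM + 1) scale, after the library mean of these members was taken off; red is higher and blue lower, and libraries and genes are ordered by the leading pattern, with the genes described in the text labelled. The top rows (RPL21, RPL27A, RPL14, RPL11) are low in control 2 and lens 6 and high in lens 3 and lens 4, and RPS28 and RPLP1 near the bottom run the other way.

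The same libraries stood apart in the rest of the transcriptome. The first principal component of the 13523 other tested genes not on Z or W (28.0% of their variance) had its lowest values in control 2 and lens 6 as well, and the 4 libraries highest on it (lens 2, 3 and 4 and control 5) were the 4 highest on the pattern of the ribosomal protein genes. Its sign was set so that lens 4 was positive, so the shared direction is not a result. The library mean was taken off the members but not off these other genes. Summed neural retina markers were 1625 to 1954 CPM in controls and 1289 to 1838 CPM in lens libraries; control 2 was highest (1954 CPM) and lens 4 and lens 3 lowest (1289 and 1336 CPM). The part of these differences in the pattern was not tested. Library scores on the pattern were -0.47, -0.13 and 0.27 (lowest, median and highest) in controls and -0.40, 0.11 and 0.40 in lens libraries, so the groups overlapped.

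**Figure D2:**
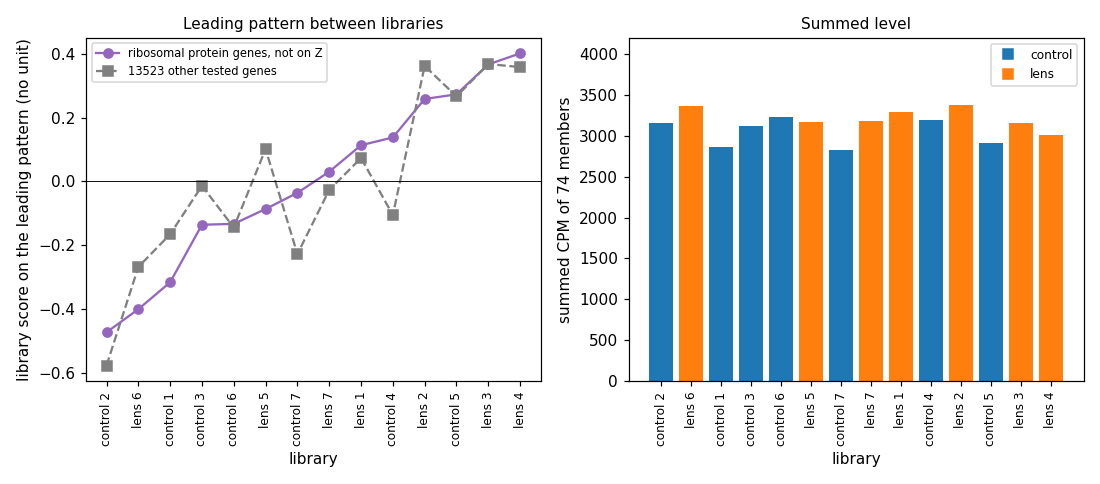
Left, the score of each library (no unit) on the leading pattern of the 69 ribosomal protein genes not on Z (circles) and of 13523 other tested genes (squares); right, the summed CPM of the 74 members in the same library order, with bars from 0. Control 2 and lens 6 are lowest for both sets of genes, and the summed level runs from 2827 to 3374 CPM. The sign of each pattern was a choice, and the library mean was taken off the ribosomal protein genes only.

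Reads of some members could be shared with other listed genes. Of the 74 members, 17 overlap another row of the table, 13 on the same strand and 4 on the opposite strand, and the use of strand in counting is not given in the sources used here. Most of the overlapping rows (15 of 21 were under 300 bases long) are noncoding RNAs inside the member gene, and most stood far below it. RPL14 (mean 28.2 CPM) overlaps ENTPD3 (14.03 CPM), and RPL3L (0.210 CPM) lies opposite NDUFB10 (22.4 CPM), so the levels of RPL14 and RPL3L are uncertain. Ribosomal protein genes also have near-identical copies in many genomes, and how the authors treated reads with several matches is not given in the sources used here.

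On chromosome Z lie 4 members, RPL17 (positions 1078186 to 1081527), RPL37 (12918278 to 12920909), RPS6 (33736418 to 33740877) and RPS23 (63563439 to 63565259); positions are those of the deposited table, for which the submitters' processing notes name GRCg6a. RPS6, the 40S protein phosphorylated by the S6 kinases downstream of mTOR, stood at 67.8, 71.9, 73.6, 88.0 and 89.98 CPM in the 5 libraries with W-linked RNA and at 103.6, 142.9 and 159.6 CPM (lowest, median and highest) in the 9 without. The ranges did not overlap. RPL17, which sits beside the exit of the protein tunnel, stood at 13.9995, 14.9, 17.6, 17.6 and 18.0 CPM with W-linked RNA and at 22.9, 28.6 and 29.4 CPM without, again with no overlap. RPS23, a protein of the centre where the 40S subunit checks codon and anticodon, stood at 11.4, 12.3, 14.01, 15.6 and 16.9 CPM with W-linked RNA and at 20.7, 28.0 and 36.7 CPM without, also with no overlap. Of all genes, 2.36% had ranges that did not overlap, and the share among genes on Z alone was not worked out. RPL37, a small zinc-binding protein of the 60S subunit, differed less: 7.72, 8.15, 8.84, 10.1 and 11.1 CPM with W-linked RNA against 9.17, 10.9 and 16.1 CPM without, and these ranges overlapped.

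In a limma fit over all 14259 tested genes with group as a covariate, RPS6, RPL17 and RPS23 were lower in libraries with W-linked RNA, and no other member was called (3 of 73 members, against 2.64% of all genes). The log2 difference was -0.74 (SE 0.08, adjusted p = 1.40e-05) for RPS6, -0.72 (SE 0.08, adjusted p = 1.51e-05) for RPL17 and -1.001 (SE 0.14, adjusted p = 0.000114) for RPS23. The mean level with W-linked RNA was 55.4% of that without for RPS6, 59.9% for RPL17 and 50.8% for RPS23. RPL37 did not pass (log2 difference -0.28, SE 0.13, adjusted p = 0.462), and its mean stood at 80.9%. Of all tested genes 2.48% were called lower with W-linked RNA, and of the 661 other genes on Z 51.3% were, so 3 of 4 Z-linked members is a count to be read beside the latter. The median log2 difference was -0.73 over the 4 members and -0.37 over the other Z genes, of which 597 of 661 were lower. RPS23 was passed by 1 of the 661 in size of the fall, RPS6 by 61 and RPL17 by 76, whereas 420 fell further than RPL37. Within the control libraries alone, 4 with and 3 without W-linked RNA, the 3 calls held, with log2 differences of -0.76 for RPS6, -0.66 for RPL17 and -0.93 for RPS23 (limma adjusted p = 0.00464, 0.0115 and 0.00494; 1.61% of all genes called).

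Of the 69 members not on Z, 0 were called for W-linked RNA by limma (3 at an unadjusted p under 0.05, where 10.6% of all genes and 7.42% of genes not on Z were), the lowest adjusted p being 0.259, for RPL22L1 (log2 difference 0.23). Among all genes not on Z 0.213% were called, so a count of 0 is near that background. Their median log2 difference was -0.01, with 32 higher and 37 lower. Set against the mean of the other members in the same library, the mean log2 level of the 4 Z-linked members was -0.53, -0.50 and -0.45 (lowest, median and highest) in the 5 libraries with W-linked RNA and 0.08, 0.16 and 0.28 in the 9 without.

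Within the 9 libraries without W-linked RNA the Z-linked members still differed from each other. RPS23 was highest in lens 6 (36.7 CPM) and control 1 (33.6 CPM), where RPS6 was at its lowest of the 9 (132.3 and 103.6 CPM). RPL37 was highest in the same libraries (16.1 and 12.7 CPM). Both libraries lie toward the low end of the pattern described for the other members.

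**Figure D3:**
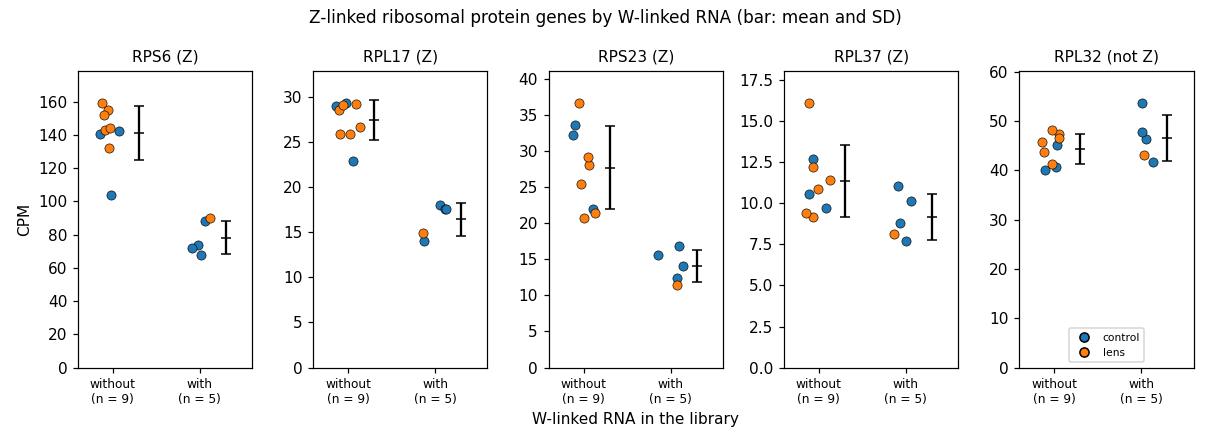
CPM in each library (points; blue control, orange lens) without (n = 9) and with (n = 5) W-linked RNA for the 4 members on Z and for RPL32, a steady member not on Z; bars are the mean and SD. RPS6, RPL17 and RPS23 do not overlap between the classes of library, while RPL37 and RPL32 do.

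The lens retinas, from eyes made to look through a defocusing lens, were set against control retinas. The groups also differ in W-linked RNA, and counts over the 73 members include those on Z. No ribosomal protein gene was called: by limma, 0 of 73 members passed at an adjusted p under 0.05, against 0.0771% of all genes, and voom on recovered reads, an alternative added after seeing the data, also called 0. At an unadjusted p under 0.05, 11 members were higher in the lens retinas and 1 was lower (15.1% and 1.37% of members), where 3.03% of all genes were higher and 10.5% lower. By the sign of the estimate alone, 51 of 73 members were higher (69.9%, against 36.7% of all genes), 84.9% against 49.3% after median ratio scaling and 80.8% against 43.7% when each library was scaled to one common column sum. The median log2 fold change was 0.06 over the 69 members not on Z and -0.04 over all genes tested. It was 0.05 over the 27 tested 40S members not on Z, of which 18 were higher, and 0.07 over the 42 of the 60S subunit, of which 29 were higher.

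RPLP2, which pairs with RPLP1 on the ribosomal stalk, stood at 14.2, 14.7 and 16.0 CPM (lowest, median and highest) in controls and at 16.9, 17.7 and 21.6 CPM in lens libraries. It was the 1 member whose groups did not overlap (0.266% of all genes had groups that did not), with means of 14.9 ± 0.597 and 18.0 ± 1.66 CPM (SD, n = 7 each), and by limma its log2 fold change was 0.26 (SE 0.06, adjusted p = 0.107), so it did not pass. RPLP1 stood at 8.59, 14.7 and 20.6 CPM in controls and at 7.93, 10.7 and 18.7 CPM in lens libraries, with wide overlap and a log2 fold change of -0.28 (SE 0.19, limma adjusted p = 0.526). RPLP0, the base of the stalk, stood at 29.6, 36.6 and 43.2 CPM in controls and at 33.5, 37.7 and 40.7 CPM in lens libraries (log2 fold change 0.08).

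Among the other 60S proteins, RPL7 and RPL27A had the next smallest p-values. RPL7, a protein of the 60S surface near the 5S RNA, stood at 62.3, 73.4 and 79.9 CPM in controls and at 75.6, 86.1 and 104.6 CPM in lens libraries, and the groups overlapped at their edges (log2 fold change 0.23, SE 0.07, limma adjusted p = 0.172). RPL27A stood at 59.7, 74.5 and 90.2 CPM in controls and at 64.9, 92.9 and 105.4 CPM in lens libraries, with lens 6 the single low lens library (log2 fold change 0.31, the highest of the members not on Z; adjusted p = 0.220). RPL38, RPL30, RPL9, RPL23, RPL22 and RPL11 followed, with log2 fold changes of 0.15 to 0.25 and adjusted p from 0.262 to 0.343. Of the 12 members at an unadjusted p under 0.05, 10 were higher and not on Z, 9 of them in the 60S subunit. All 10 had a weight above 0 on the pattern between libraries, as 34 of the 69 members not on Z did, and 7 were among the first 10 by weight. RPS19, the 1 member that was lower, had the lowest weight of all. Weights and p-values were drawn from the same libraries, whose median scores were -0.13 in controls and 0.11 in the lens group. A high weight and a positive lens estimate were therefore partly tied in advance. The part of that pattern in the lens values was not tested. With W-linked RNA as a covariate, 8 of 42 60S members and 1 of 27 40S members not on Z were higher at an unadjusted p under 0.05 (limma). In the 9 libraries that lack W-linked RNA, 6 of 42 and 4 of 27 were, so the lean to the 60S subunit was not seen there.

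Of the 40S proteins, those not on Z with the smallest p-values were RPS24 and RPS19. RPS24, which in humans is also a Diamond-Blackfan gene, stood at 87.5, 109.5 and 119.6 CPM in controls and at 106.2, 120.4 and 127.3 CPM in lens libraries, with overlap (log2 fold change 0.17, SE 0.06, limma adjusted p = 0.254). RPS19 stood at 11.9, 19.7 and 25.7 CPM in controls and at 4.99, 14.5 and 20.1 CPM in lens libraries, with overlap (log2 fold change -0.64, SE 0.24, adjusted p = 0.259). RPSA, the 40S protein also known as a laminin receptor, stood at 42.1, 49.5 and 79.3 CPM in controls and at 40.5, 55.0 and 69.2 CPM in lens libraries (log2 fold change -0.01), a range within each group far wider than the difference between medians.

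**Figure D4:**
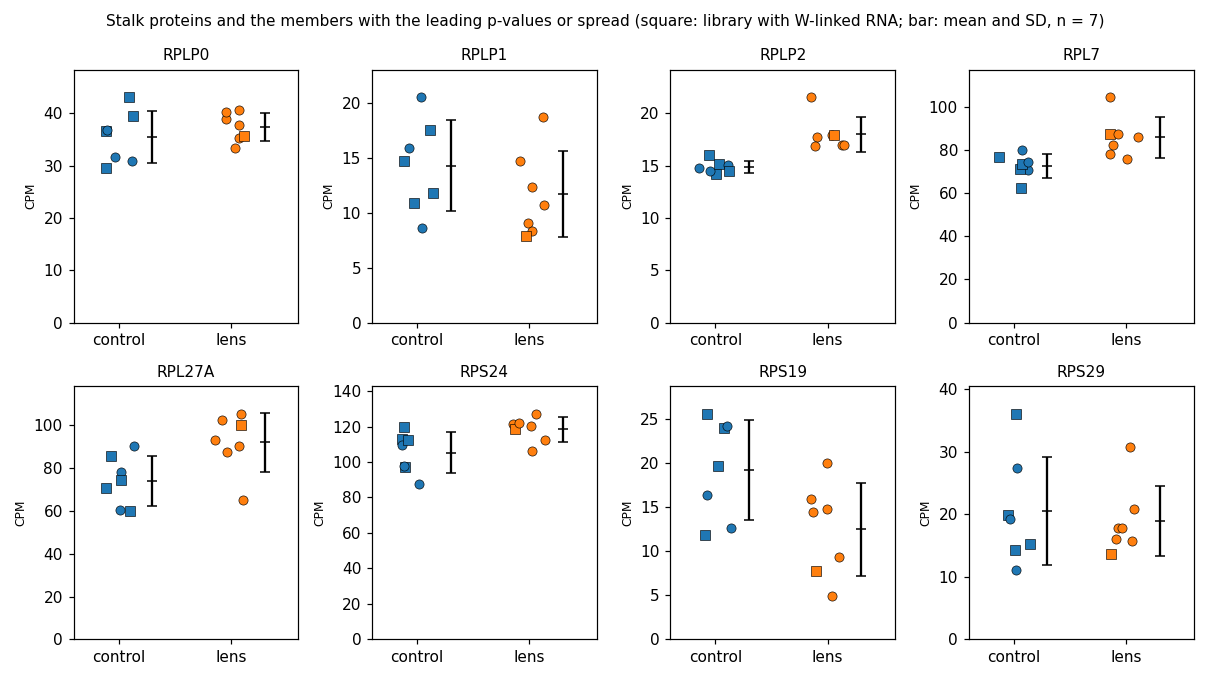
CPM in each library (points; squares mark libraries with W-linked RNA) in the control and lens groups for the stalk proteins RPLP0, RPLP1 and RPLP2, for RPL7, RPL27A, RPS24 and RPS19, which with RPLP2 have the smallest p-values among members not on Z, and for RPS29, among the most variable; bars are the mean and SD (n = 7). RPLP2 alone among these 8 shows groups that do not overlap.

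Of the Z-linked members, RPS6 had a lens value far from 0, and the groups differ in W-linked RNA (4 of 7 control and 1 of 7 lens libraries). RPS6 stood at 67.8, 88.0 and 142.4 CPM in controls and at 89.98, 144.3 and 159.6 CPM in lens libraries, and the lowest lens value was that of lens 4, the library with W-linked RNA. Its log2 fold change was 0.54 (SE 0.16, limma adjusted p = 0.190), 0.22 with W-linked RNA as a covariate (SE 0.08, adjusted p = 0.320) and 0.21 in the 9 libraries that lack W-linked RNA (SE 0.09, adjusted p = 0.606). RPL17 went from 0.29 to -0.02 with the covariate, RPS23 from 0.25 to -0.18 and RPL37 from 0.10 to -0.02, and none of these passed. The members not on Z kept a median of 0.05 with the covariate and stood at 0.11 in the 9 libraries that lack W-linked RNA. In either case limma called 0 members. At an unadjusted p under 0.05 were 11 of 73 members in each, or 15.1%. Of all genes, 11.2% were with the covariate and 8.08% in the 9 libraries. With the covariate 10 of the 73 were higher and 1 lower, where 448 of 14259 genes were higher and 1156 lower. In the 9 libraries 11 were higher and 0 lower, against 516 and 636 of all genes. Of the 69 members not on Z, 9 were higher at that level with the covariate and 10 in the 9 libraries. By the sign of the estimate alone, 52 of the 69 were higher with the covariate (75.4%, against 39.95% of all genes). In those 9 libraries 58 were (84.1%, against 48.4%).

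**Figure D5:**
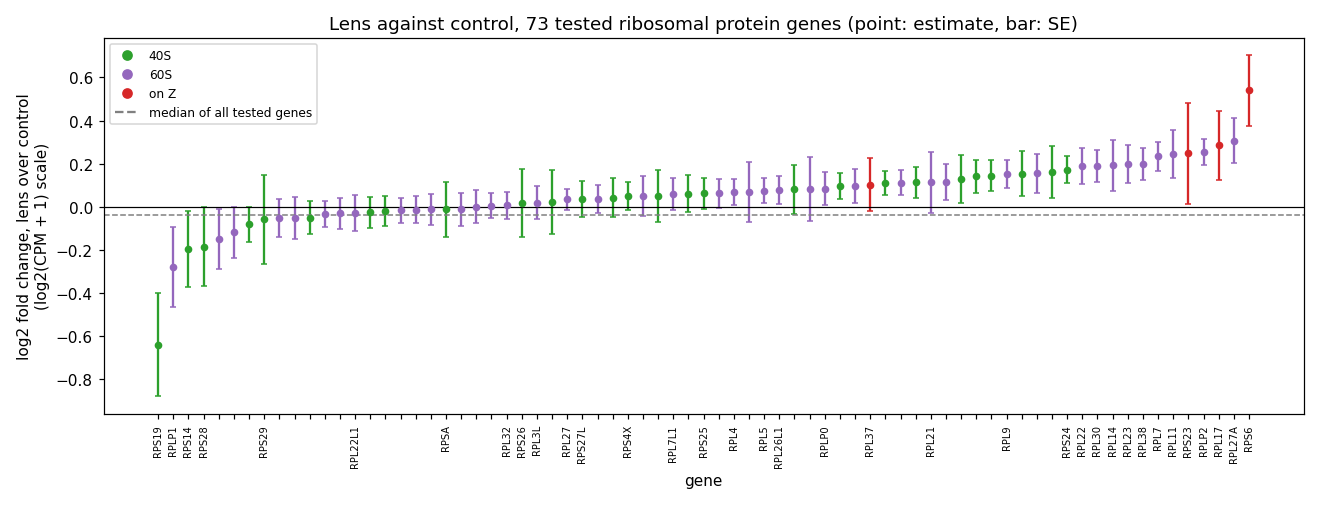
Log2 fold change of lens over control on the log2(CPM + 1) scale (points, with bars of 1 SE) for the 73 tested members in rank order, by subunit and with the members on Z in red and the genes described in the text labelled; the dashed line is the median of all genes tested (-0.04). RPS19 at -0.64 and RPS6 at 0.54 stand at the ends.

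Members whose symbols name a paralog showed no change that passed the test. RPL26L1, for which RefSeq gives RPL26 as a synonym in chicken, stood at 77.3, 95.3 and 106.6 CPM in controls and at 87.4, 99.0 and 109.5 CPM in lens libraries (log2 fold change 0.08). RPL22L1, a paralog of RPL22, stood at 11.7 to 18.5 CPM in controls and 12.3 to 15.4 CPM in lens libraries (-0.03), and RPL7L1 at 14.9 to 18.9 CPM and 15.8 to 21.6 CPM (0.06, the median of the members not on Z). RPS27L, a paralog of RPS27 that p53 induces in humans, stood at 0.637 to 1.31 CPM and 0.895 to 1.33 CPM (0.04). RPL3L, the form of RPL3 made in striated muscle in mammals, stood at 0.0774 to 0.522 CPM, or 3 to 19 reads per library, near the level that a count of 0 allows.

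Other genes of the translation machinery, in lists set with earlier results of these data known, gave 0 calls by limma in the lens comparison. Of ribosomal proteins whose symbols fall outside the rule, FAU, made fused to a ubiquitin-like protein, went from 15.3 ± 1.77 to 13.7 ± 2.16 CPM (SD over 7 libraries each; log2 fold change -0.16), and the 40S scaffold RACK1 from 30.0 ± 8.57 to 31.6 ± 10.3 CPM (0.06). Of 34 initiation factors tested, 1 was higher and 4 lower at an unadjusted p under 0.05, with a median of -0.03. At that level 3.03% of all genes were higher and 10.5% lower, so these counts are near background. The factors with the smallest p-values included EIF1, which guards the choice of start codon, and EIF4G1, the scaffold of the cap-binding complex (log2 fold change -0.26). EIF1 went from 9.38 ± 0.358 to 7.23 ± 0.934 CPM (SD over 7 libraries each, log2 fold change -0.34, limma adjusted p = 0.0955). Of 15 elongation and nascent chain factors, 1 was higher and 1 lower at that level; TPT1, a growth-related protein whose mRNA also starts with pyrimidines, stood at 0.18, BTF3, a Z-linked subunit of the nascent chain complex, at -0.34, and EEF2K, which inhibits elongation, at 0.22 (log2 fold changes, adjusted p = 0.308, 0.207 and 0.396).

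Of 75 ribosome assembly genes tested, 3 were higher and 2 lower at an unadjusted p under 0.05 (3.03% and 10.5% of all genes). The median log2 fold change of the 75 was 0.01. A positive estimate was seen in 40 of them (53.3%, against 36.7% of all genes), in 48 with W-linked RNA as a covariate (64.0%, against 39.95%; median 0.06) and in 56 in the 9 libraries that lack it (74.7%, against 48.4%; median 0.07). WDR36 and BRIX1, both Z-linked, stood at 0.40 and 0.43, and at 0.13 and 0.07 with W-linked RNA as a covariate. UTP20 stood at -0.21 and GAR1, a protein of the complex that modifies ribosomal RNA, at 0.21. Of 31 genes of mTOR signalling and of the control of pyrimidine-tract mRNAs, 3 were higher and 2 lower at that level (median -0.03): LARP1, which binds the start of ribosomal protein mRNAs, went from 14.9 ± 2.84 to 11.04 ± 3.46 CPM (SD over 7 libraries each; log2 fold change -0.43, adjusted p = 0.227), SESN3, an inhibitor of mTOR complex 1, from 81.7 ± 4.59 to 92.2 ± 7.39 CPM (0.17, adjusted p = 0.203), and MXI1 and TIAL1 stood at -0.16 and 0.15. The 74 mitochondrial ribosomal proteins, which serve the separate ribosome of that organelle, had a median of 0.01, with 5 higher and 2 lower at that level. A positive estimate was seen in 39 of the 74 (52.7%), against 51 of 73 for the cytosolic family (69.9%) and 36.7% of all genes. MRPL42 and MRPL1 stood at 0.25 and 0.16, and MRPL9 and MRPL4 at -0.30 and -0.19 (log2 fold changes).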

How the data were processed

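The authors deposited CPM per gene and library with an offset of 0.0001, as read from the values; STAR, Partek and GRCg6a are named, per the submitters' processing notes, and versions, annotation, counting and use of strand are not given in the sources used here. Columns summed to 303456 to 333244 CPM, and 93.0% to 93.8% of low values lay within 0.02 of whole multiples of a step (up to 200 reads), so recovered reads gave library totals, reads per gene, floors and counting SDs, and a test only in an alternative. After the offset was taken off, log2(CPM + 1) was tested with limma 3.58.1 in R 4.3.3 (lmFit and trended eBayes; two-sided p-values adjusted by Benjamini-Hochberg across the 14259 genes tested); fold changes understate low genes. Genes needed 0.5 CPM of the column sum in at least 7 libraries (0.152 to 0.167 CPM). W-linked RNA was called where HINTW exceeded 2 on that scale. Chromosomes follow GRCg7b symbols (15419 of 18631 matched). Python 3.11.15, NumPy 2.4.6, pandas 2.3.3 and matplotlib 3.10.9 made tables and figures. The fit was also run on simulated reads drawn independently for each gene. They lacked the patterns shared between genes here, so that run gives no error rate for these data. Alternatives were other pseudocounts (0.1 and 5), filters, scalings, covariates, libraries left out and voom. Named genes were the Z-linked members, those with the smallest p-values, extreme fold changes or spread, paralog symbols, RPSA and the stalk proteins, and up to 4 genes per further list; others were named after their values were seen. Members and lists were chosen with earlier results of these data known. The rule also asked for levels per coding length, which were not computed. None of 11 snoRNA host genes was listed by symbol. Some genes are not reported here.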

Additional observations from a re-analysis of the deposited data

Results flagged for a closer look

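Within groups of 7 libraries, 6 values of the named members and their summed level stood apart from the rest of their group by Dixon's test (the gap to the nearest library set against the whole range; 48 groups examined, of which chance flags about 1 in 20). Some of these members were named for their spread or p-values in the same libraries, so that rate does not hold for them. In lens 4, the lens library with W-linked RNA, RPS6 stood at 89.98 CPM against 132.3 to 159.6 CPM in the other lens libraries, and RPL17 at 14.9 CPM against 25.9 to 29.3 CPM. In lens 2, RPLP2 stood at 21.6 CPM against 16.9 to 18.0 CPM, and RPL7 at 104.6 CPM against 75.6 to 87.3 CPM. RPS29 stood at 30.7 CPM in lens 6 against 13.6 to 20.8 CPM. RPL22L1 stood at 18.5 CPM in control 4 against 11.7 to 14.5 CPM.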

How the results depend on the processing

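The 0 calls for lens against control and the 3 calls for W-linked RNA were the same in all 24 alternatives for each, with the lowest adjusted p of any member in the lens comparison between 0.0775 and 0.353. The median log2 fold change of the members not on Z ran from 0.01 to 0.08 with a library left out and from 0.05 to 0.11 otherwise, and 43 to 62 members had a higher lens mean. Members at an unadjusted p under 0.05 were 7 to 16 with a library left out, 20 after median ratio scaling and 16 after rescaling to the same sum. The lens value turned with W-linked RNA as a covariate for RPL17 (-0.022), RPL37 (-0.0168) and RPS23 (-0.18), and in the 9 libraries that lack it for RPS23 (-0.12); W-linked RNA differs between the groups by the numbers given. A negative binomial count model on recovered reads was not run because only 93.0% to 93.8% of low values were whole reads. Voom was run on those reads after rounding, so its values carry the same limit. No paired analysis was possible because the control and lens samples share no number in their labels. Depth limits RPL3L, at 19 reads or fewer.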
